A study of Mus musculus with 10 samples.

Results

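The genes described here are 39 genes of transforming growth factor beta (TGF-beta) signalling and the extracellular matrix, measured by RNA sequencing in the livers of mice whose father or mother lacked the hepatic insulin receptor. They were taken by symbol from a count table of 46071 mouse genes in 10 libraries, and all 39 were found in it. The set held 3 ligands, 4 receptor genes, 5 SMADs, 2 SMAD corepressors, 3 latency proteins, 5 fibrillar collagens, 4 basement membrane or beaded filament collagens, 5 matrix glycoproteins, 3 small proteoglycans and 5 genes of matrix crosslinking and turnover. Of these, 38 passed the filter on low counts, as did 14820 genes of the whole table. Timp1, a secreted inhibitor of matrix metalloproteinases, did not pass and was listed between 0 and 0.333 CPM (counts scaled to library size).

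The control group (4 libraries, control 1 to 4) was the offspring of a male and a female that both carried the floxed insulin receptor allele (insulin receptor-IRlox/lox) without Cre (Albumin-Cre-/-), from a line bred among controls over 4 generations. The FL group (3 libraries, FL 5 to 7) had a LIRKO father and a control mother, and the ML group (3 libraries, ML 8 to 10) had a control father and a LIRKO mother. LIRKO mice, the liver-specific insulin receptor knockout, carry IRlox/lox with Albumin-Cre+/-, so that Cre is driven by the promoter of the hepatocyte gene Alb. Every parent in all 3 groups carried the floxed allele, and the labels used here give neither the offspring's own Cre genotype nor their sex, age, litter or diet. They do not say that the libraries came from separate animals, and p-values here measure only the spread between these libraries.

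TGF-beta is secreted in a latent complex with latency proteins that tether it to the matrix. Once released it binds a pair of serine/threonine kinase receptors, and the activated receptor phosphorylates Smad2 and Smad3, which enter the nucleus with Smad4. Smad6, Smad7, Ski and Skil dampen the signal. In liver the pathway is best known for driving hepatic stellate cells to deposit fibrillar collagen, while hepatocytes themselves make much of the plasma fibronectin. In bulk tissue, fewer cells of a type and less RNA per cell cannot be told apart.

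Assigned counts ran from 18655506 to 39379940 per library in control, from 23192571 to 31116742 in FL and from 26614915 to 34568205 in ML. Control 1 and ML 9 stood apart in that they were rich in short transcripts: genes with an exon length under 1000 bp lay a median 0.36 and 1.34 log2 units above their own means over the 10 libraries, and genes of at least 6000 bp lay a median 0.41 and 0.78 below. Insr, the floxed gene, was present in all libraries, at 62.9 to 128 CPM in control, 59.3 to 77.6 in FL and 28.2 to 55.2 in ML, a count over the whole gene that does not check the recombined part. Ddx3y, a Y-linked gene, was at 39.1 CPM or more in every library, whereas Xist was at 5.38 CPM in ML 8 and at most 0.145 CPM in the others. The members are long (median exon length 5269 bp against 2847 bp over all genes tested), and 31 of the 38 have at least 3000 bp, so the members' counts and medians are also given without control 1 and ML 9.

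No member passed an adjusted p of 0.05 in any of the 3 comparisons with edgeR's quasi-likelihood test, adjusted over all 14820 genes. In FL against control 0.0135% of all genes passed, in ML against control 0.0% and in FL against ML 0.00675%. With DESeq2, which called 0.351%, 0.31% and 1.67% of all genes in the same order, 1 member was called, Fn1 in FL against ML. At an unadjusted p under 0.05, edgeR placed 0 members lower and 1 higher in FL than in control (all genes 1.9% and 1.63%), 5 lower and 0 higher in ML than in control (7.33% and 8.81%), and 1 lower and 7 higher in FL than in ML (12.4% and 7.59%). These counts turned on single libraries, and so did the counts over all genes. Between ML and control they were 12 lower and 2 higher without control 1, 2 lower and 0 higher without ML 9, and 9 lower and 1 higher without both. In both directions together, 13 members had such a p in ML against control without ML 8, and 2 without ML 10. Of all genes, 5177 of 14758 had one without control 1, 669 of 15305 without ML 9 and 4188 of 15223 without both. Without ML 8 it was 3009 of 15245, and without ML 10 it was 2251 of 15326. Between FL and ML the members' total was 0 without FL 5, 13 without ML 8, 3 without ML 9 and 4 without ML 10. It was 10 without control 1 and ML 9. Of all genes the numbers in the same order were 882 of 15352, 3576 of 15245, 733 of 15305, 2629 of 15326 and 2959 of 15223. The log2 fold changes had a median of -0.13 over the members in FL against control, with 24 of 38 below 0 (all genes -0.05, 55.3% below 0). In ML against control the members' median was -0.49, with 31 of 38 below 0 (all genes -0.05, 52.9% below 0). Both comparisons use the same 4 control libraries. In FL against ML the members' median was 0.415, with 12 of 38 below 0 (all genes 0.04, 47.9% below 0). Without control 1 and ML 9 the medians were -0.13, -0.50 and 0.31 in the same order, with 26, 31 and 10 of 39 members below 0, and the lowest adjusted p of a member with edgeR was 0.0954, in ML against control. When each library's smooth trend on exon length and GC content was removed, they were -0.21, -0.24 and 0.0365. Long genes as a whole also shifted. Over all genes tested of at least 3000 bp the medians were 0.03, -0.34 and 0.39 in the same order. Over those of at least 6000 bp they were 0.05, -0.60 and 0.68. Leaving out control 1 and ML 9 kept most of this, with -0.04, -0.31 and 0.27 from 3000 bp and -0.08, -0.60 and 0.50 from 6000 bp.

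**Figure D1:**
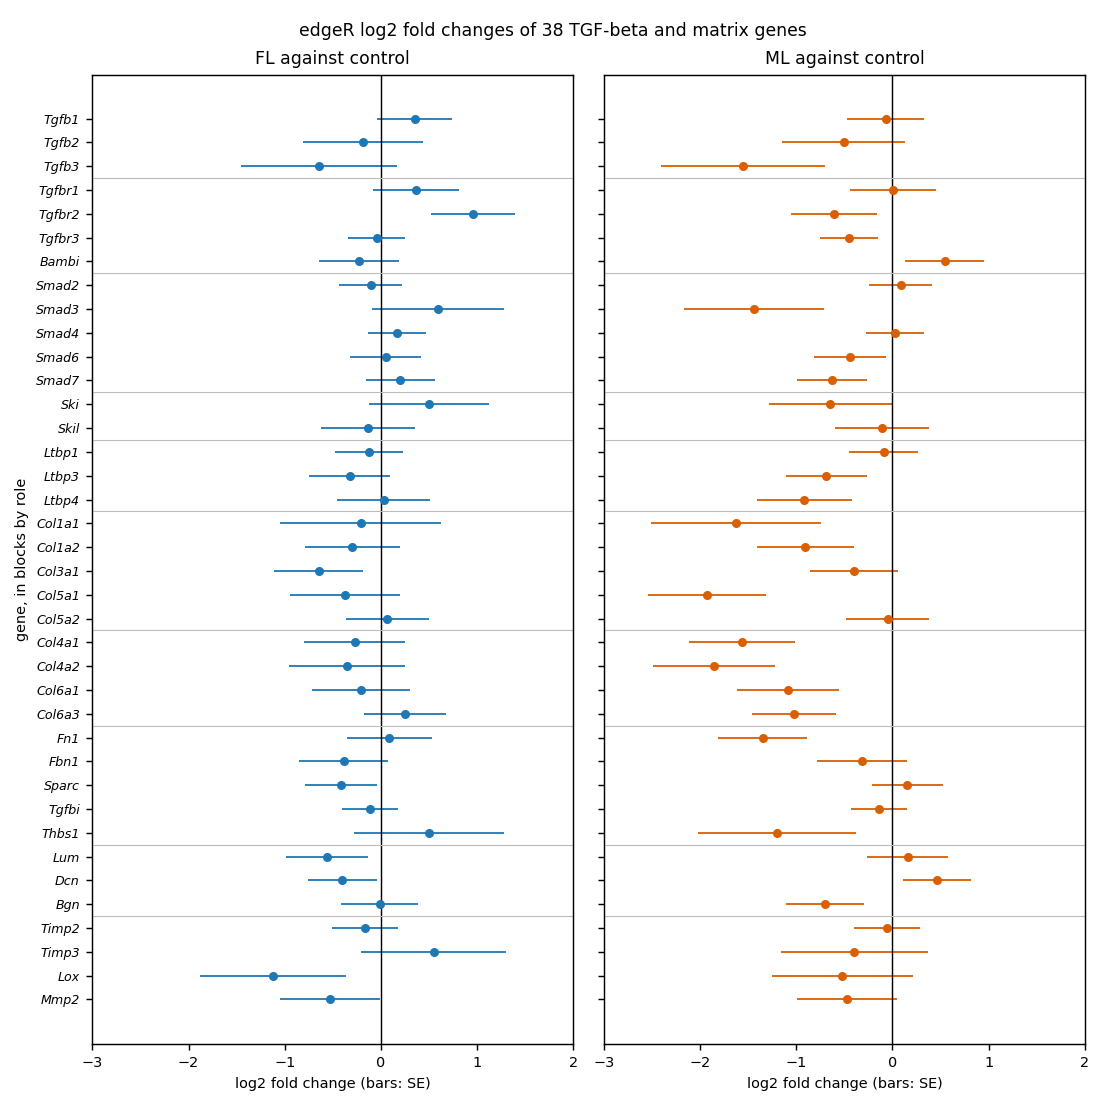
Log2 fold changes of the 38 genes tested (edgeR; bars are SE), for FL against control on the left and ML against control on the right, in blocks by role from ligands at the top to matrix turnover at the bottom. In ML against control 31 of 38 points lie left of 0, with Col5a1 and Col4a2 the farthest, and in FL against control 24 of 38 do.

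The whole set took between 0.0579% and 0.282% of a library's counts, and Fn1 alone made up 35.4 to 71.2% of those. It was 0.0909% in control 1 against 0.194 to 0.229% in controls 2 to 4. FL libraries gave 0.149 to 0.282% and ML libraries 0.0579 to 0.122%. On this share, most of which is Fn1 in many libraries, control 1 lay within the range of the ML libraries. With Fn1 left out the groups overlapped: the other members summed to 580 to 694 CPM in control, 519 to 744 CPM in FL and 436 to 649 CPM in ML. The median member lay 0.34 log2 units below its own mean over the libraries in control 1 and 0.28 to 0.36 above it in controls 2 to 4. In FL the deviation was 0.40 in FL 5, -0.05 in FL 6 and -0.16 in FL 7, and in ML it was 0.09 in ML 8, -0.46 in ML 9 and -0.63 in ML 10.

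**Figure D2:**
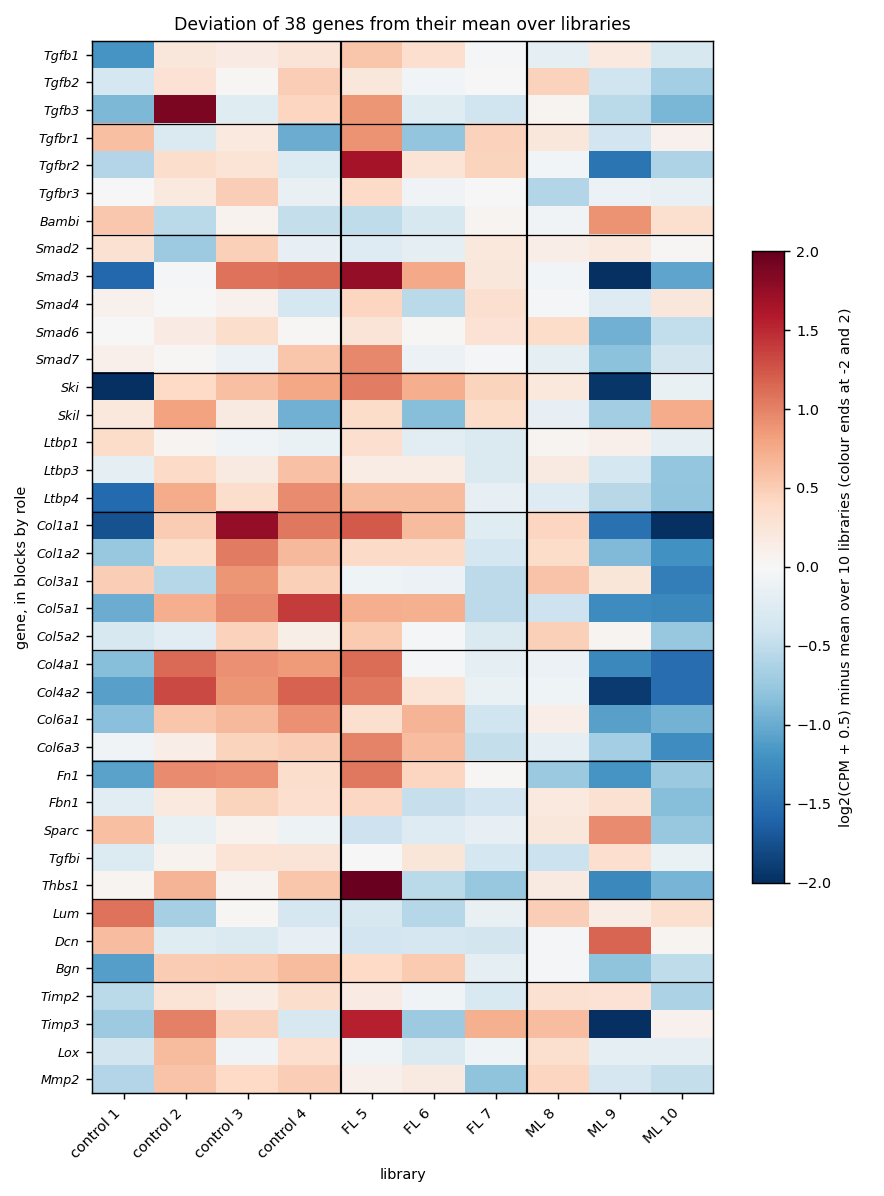
Deviation of each of the 38 genes (rows, in blocks by role) from its own mean over the 10 libraries (columns), as log2(CPM + 0.5), with the colour scale ending at -2 and 2. Collagen and Fn1 rows are mostly blue in control 1, ML 9 and ML 10 and red in controls 2 to 4 and FL 5, while Dcn and Sparc are red in control 1 and ML 9.

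Among the ligands, Tgfb1, which encodes the main TGF-beta isoform of the liver, had the highest level per kilobase. It was at 2.28, 6.88, 6.55 and 7.09 CPM in controls 1 to 4, at 8.74, 7.50 and 5.65 CPM in FL 5 to 7 and at 5.10, 6.72 and 4.56 CPM in ML 8 to 10. Control 1 was the only low library, and the other 9 overlapped across the groups. Against control the log2 fold change was 0.35 (SE 0.39) for FL and -0.07 (SE 0.40) for ML. Tgfb2 was at or under 0.897 CPM in every library. Tgfb3 ran from 0.341 to 5.30 CPM, and its highest value, in control 2, was more than that of any FL or ML library.

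The receptor genes differed among themselves. Tgfbr1 encodes the type I receptor, the kinase that phosphorylates Smad2 and Smad3. Its levels were 41.9, 22.3, 31.4 and 13.5 CPM in the controls, 51.6, 15.8 and 37.9 CPM in FL and 32.1, 20.9 and 29.2 CPM in ML. The control and FL ranges were both wide and enclosed the ML values, with log2 fold changes against control of 0.36 (SE 0.44) for FL and 0.01 (SE 0.45) for ML.

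Tgfbr2 (ENSMUSG00000032440, chromosome 9, 116084293 to 116175360, minus strand of GRCm38) encodes the type II receptor, which binds ligand first and activates the type I chain. Its levels were 15, 29.0, 27.5 and 18.7 CPM in the controls, 73.2, 27.4 and 31.2 CPM in FL and 21.8, 7.89 and 14.7 CPM in ML. The FL libraries all lay above the ML libraries, and FL 5 lay far above everything else. Against control, FL had a log2 fold change of 0.96 (SE 0.44) and ML of -0.61 (SE 0.45). Between FL and ML it was 1.57 (SE 0.48, edgeR adjusted p = 0.238), the lowest unadjusted p of any member in that comparison. Without FL 5 the FL against control value was 0.38 and the FL against ML value 0.99. Tgfbr3, the betaglycan coreceptor, was at 7.73 to 10.7 CPM in FL and 5.25 to 7.50 CPM in ML, also without overlap, and at 7.33 to 11.6 CPM in control. Bambi, a pseudoreceptor without kinase activity, ranged from 2.01 to 6.32 CPM, with its highest values in ML 9 and control 1.

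Of the SMADs, Smad4, the shared partner of the receptor-activated SMADs, had the highest level per kilobase. It was at 24.8, 23.5, 24.9 and 18.3 CPM in the controls, 31.7, 15.9 and 29.4 CPM in FL and 23.0, 19.5 and 27.4 CPM in ML. The groups overlapped throughout, with log2 fold changes of 0.17 (SE 0.30) and 0.03 (SE 0.30) in FL and ML against control. Smad2 was between 7.21 and 17.4 CPM in all libraries.

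Smad3, which together with Smad4 binds DNA directly, varied far more. It was at 2.05, 6.88, 15.5 and 16.0 CPM in the controls, at 25.2, 12.3 and 8.39 CPM in FL and at 6.78, 1.11 and 3.16 CPM in ML. All 3 FL libraries lay above all 3 ML libraries, while the controls overlapped both. On the log2 scale FL differed from control by 0.59 (SE 0.69), ML from control by -1.44 (SE 0.73) and FL from ML by 2.03 (SE 0.77, edgeR adjusted p = 0.238). Without FL 5 the FL against control value was 0.0328, and without ML 8 the ML against control value was -2.22. The inhibitory SMADs are themselves induced by TGF-beta family signals. Smad7 was at 7.62 to 16.6 CPM in FL, 7.63 to 12.4 CPM in control and 4.50 to 7.28 CPM in ML, so that ML lay below both other groups without overlap. Smad6 was at 1.89 CPM in ML 9, 2.79 CPM in ML 10 and between 4.16 and 5.46 CPM in the other 8 libraries.

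Ski, a corepressor that holds SMAD complexes inactive, was at 2.62, 17.3, 19.9 and 22.5 CPM in the controls, 26.7, 21.8 and 17.7 CPM in FL and 15.1, 3.00 and 11.6 CPM in ML. Control 1 and ML 9 were the low libraries, and FL lay above ML without overlap. Log2 fold changes against control were 0.50 (SE 0.63) for FL and -0.65 (SE 0.64) for ML, and the FL value was 0.15 without control 1. The related corepressor gene Skil ranged from 6.46 to 23.2 CPM with no such split.

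The latency proteins bind the TGF-beta propeptide and store it in the matrix. Ltbp4, the most abundant per kilobase, was at 7.41, 38.2, 29.0 and 44.4 CPM in the controls, 35.3, 35.6 and 20.2 CPM in FL and 19, 15.3 and 13.0 CPM in ML. Controls 2 to 4 and all FL libraries lay above all ML libraries, and control 1 lay below them. Against control the log2 fold change was 0.03 (SE 0.48; -0.29 without control 1 and ML 9) for FL and -0.92 (SE 0.50) for ML, and 0.95 (SE 0.52) in FL against ML; with the length and GC trend removed, ML against control was -0.25. Ltbp1 was at 1.51 to 2.68 CPM and Ltbp3 at 0.744 to 2.69 CPM.

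**Figure D3:**
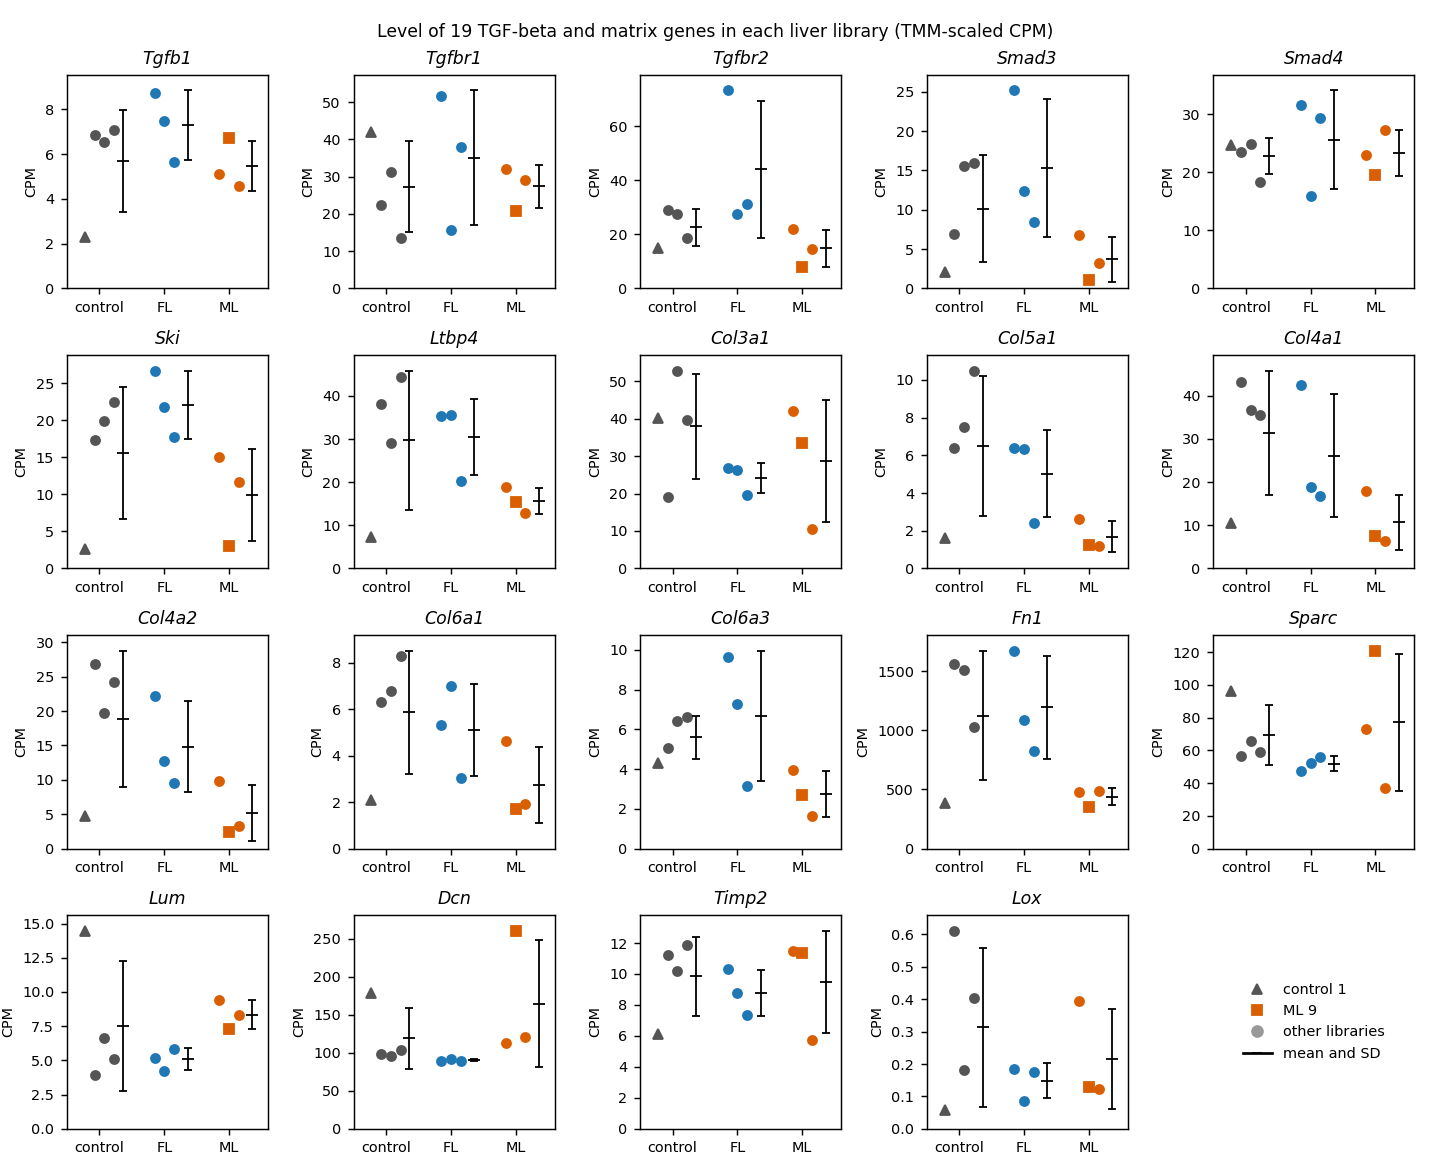
TMM-scaled CPM of 19 genes in each library, with controls in grey (control 1 as a triangle), FL in blue and ML in orange (ML 9 as a square); the horizontal mark and bar beside each group are its mean and SD (4 control, 3 FL and 3 ML libraries). Col4a1, Col4a2, Col5a1 and Fn1 are low in control 1 and in the ML libraries, and Dcn is highest in ML 9 and control 1. In Col4a1, Col4a2 and Col5a1, FL 7 lies just below ML 8.

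Of the 5 members that were lower in ML than in control at an unadjusted p under 0.05, 4 were collagen genes (Col5a1, Col4a1, Col4a2 and Col6a3) and the other was Fn1. Of the 5 fibrillar collagen genes, which encode the chains of the tensile fibres, all 5 had log2 fold changes below 0 in ML against control, from -1.93 to -0.05 with a median of -0.91. In FL against control 4 of 5 were below 0, with a median of -0.30. Col5a1 (ENSMUSG00000026837, chromosome 2, 27886425 to 28039514, plus strand) encodes a chain of type V collagen, which nucleates type I fibrils. It was at 1.60, 6.37, 7.50 and 10.5 CPM in the controls, 6.37, 6.34 and 2.39 CPM in FL and 2.63, 1.24 and 1.21 CPM in ML. Controls 2 to 4 lay above every ML library and control 1 within their range. Against control the log2 fold change was -0.37 (SE 0.57) for FL and -1.93 (SE 0.61, edgeR adjusted p = 0.301) for ML, and 1.56 (SE 0.63) in FL against ML.

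Type IV collagen forms the sheet of basement membranes, and type VI collagen forms beaded filaments around cells. All 4 genes of these types had log2 fold changes below 0 in ML against control, from -1.86 to -1.02 with a median of -1.32, and above 0 in FL against ML, from 0.88 to 1.51. Against control the 4 FL values lay between -0.35 and 0.25. With the length and GC trend removed, the 4 values ran from -1.25 to -0.41 in ML against control and from 0.34 to 0.83 in FL against ML. Col4a1 was at 10.5, 43.1, 36.8 and 35.4 CPM in the controls, 42.5, 18.8 and 16.9 CPM in FL and 17.9, 7.63 and 6.45 CPM in ML. Col4a2 was at 4.67, 26.8, 19.7 and 24.3 CPM in the controls, 22.3, 12.8 and 9.49 CPM in FL and 9.82, 2.41 and 3.29 CPM in ML. In both genes control 1 and the ML libraries were low, and FL 5 was at the level of controls 2 to 4. FL 7 lay just below ML 8 in both, and FL 6 lay between ML 8 and controls 2 to 4. For Col4a1 the log2 fold change in ML against control was -1.56 (SE 0.55, edgeR adjusted p = 0.301). For Col4a2 it was -1.86 (SE 0.64, edgeR adjusted p = 0.301). In FL against control the values were -0.27 (SE 0.53) for Col4a1 and -0.35 (SE 0.60) for Col4a2, and in FL against ML 1.29 (SE 0.57) and 1.51 (SE 0.66).

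The genes of the 2 chains lie head to head on chromosome 8 of GRCm38, Col4a1 on the minus strand from 11312826 downward and Col4a2 on the plus strand from 11312805 upward, and their annotated ends overlap by 22 bp. Their ratio, in CPM per kilobase of Col4a1 over Col4a2, was 1.42 to 2.19 in control, 1.44 to 1.86 in FL and 1.77 to 3.08 in ML, with the highest ratio in ML 9. Col6a1, a chain of type VI collagen, was at 2.11, 6.32, 6.78 and 8.27 CPM in the controls, 5.33, 6.98 and 3.03 CPM in FL and 4.62, 1.70 and 1.92 CPM in ML, with log2 fold changes against control of -0.21 (SE 0.51) for FL and -1.09 (SE 0.53; -1.70 without ML 8) for ML. Control 1, ML 9 and ML 10 were the low libraries. Col6a3, its longest partner chain, was at 4.33, 5.04, 6.42 and 6.61 CPM in the controls, 9.63, 7.27 and 3.14 CPM in FL and 3.94, 2.67 and 1.64 CPM in ML. Here the ML libraries lay below all 4 controls, control 1 included. FL differed from control by 0.25 (SE 0.42) on the log2 scale and ML by -1.02 (SE 0.44, edgeR adjusted p = 0.302), and with the length and GC trend removed the ML value was -0.41. Between ML and control 2 members, Col6a3 and Smad7, did not overlap and were lower, and none was higher (all genes 2.86% lower and 2.17% higher).

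Col3a1, the type III collagen gene and the fibrillar collagen with the highest level per kilobase, did not follow Col5a1. It was at 40.3, 19, 52.8 and 39.6 CPM in the controls, 26.8, 26.2 and 19.5 CPM in FL and 42.1, 33.6 and 10.6 CPM in ML. Control 1 lay amid the other controls, and only ML 10 was low among the ML libraries. Against control the log2 fold change was -0.65 (SE 0.46) for FL and -0.40 (SE 0.46) for ML, and the ML value was -0.0089 without ML 10. Col1a1 and Col1a2 encode the chains of type I collagen, which join in a fixed ratio, with more Col1a1 than Col1a2 product. Per kilobase, Col1a1 over Col1a2 was 0.175 in control 1 and 0.50 to 0.767 in controls 2 to 4; FL gave 0.475 to 0.834, and the ratio was 0.470, 0.244 and 0.157 in ML 8, ML 9 and ML 10. Col3a1 over Col1a1 was 41.9 in control 1 and 3.00 to 4.17 in controls 2 to 4; FL gave 2.51 to 5.49, and the ratio was 7.06, 27.4 and 17.3 in ML 8, ML 9 and ML 10. In both ratios control 1 lay with ML 9 and ML 10 and apart from controls 2 to 4. Col5a2 stayed between 1.30 and 3.89 CPM, and its log2 fold change was -0.05 (SE 0.43) in ML against control, beside the -1.93 of its partner chain gene Col5a1.

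Fn1 (ENSMUSG00000026193, chromosome 1, 71585520 to 71653200, minus strand) encodes fibronectin, an adhesive glycoprotein, and was the most abundant member per kilobase. It was at 386, 1563, 1514 and 1033 CPM in the controls, 1674, 1088 and 823 CPM in FL and 483, 356 and 484 CPM in ML. FL and ML did not overlap, and control 1 lay in the ML range while the other 3 controls lay in that of FL. The mean was 1124 ± 547 CPM in control (SD, n = 4), 1195 ± 436 CPM in FL (SD, n = 3) and 441 ± 73.6 CPM in ML (SD, n = 3). Against control, FL gave 0.09 (SE 0.44; -0.19 without control 1 and ML 9) and ML -1.35 (SE 0.46, edgeR adjusted p = 0.301) on the log2 scale. For FL against ML the log2 fold change was 1.44 (SE 0.48, edgeR adjusted p = 0.238). DESeq2 gave that last contrast as 1.42 (SE 0.49, adjusted p = 0.0450), and adjusted p-values over its 13 alternatives ran from 0.0450 to 0.666. With the length and GC trend removed, the value was 0.63 in FL against ML and -0.62 in ML against control.

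Sparc, a collagen-binding glycoprotein, was at 95.9, 56.3, 66.0 and 58.7 CPM in the controls, 47.1, 52.5 and 56.0 CPM in FL and 73.2, 121 and 36.9 CPM in ML. All FL libraries lay just below all controls, and ML 9 and control 1 were the highest libraries. Relative to control, FL had a log2 fold change of -0.42 (SE 0.37) and ML of 0.15 (SE 0.37), the latter -0.31 without ML 9. Tgfbi, a TGF-beta-induced adhesion protein gene, stayed between 21.5 and 36.8 CPM in all 10 libraries and Fbn1, the microfibril gene, between 0.806 and 2.72 CPM. Thbs1, which encodes an activator of latent TGF-beta, was at 7.44 CPM in FL 5 and at most 2.75 CPM elsewhere.

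Of the small leucine-rich proteoglycans, which coat collagen fibrils, Dcn and Lum went against the collagens in several libraries. Bgn did not, and was low in control 1 and ML 9, as Col4a1, Col4a2 and Col5a1 were. Dcn (decorin; ENSMUSG00000019929, chromosome 10, 97479609 to 97518143, plus strand) was at 179, 98.0, 95.6 and 104 CPM in the controls, 88.7, 91.9 and 89.7 CPM in FL and 113, 260 and 121 CPM in ML. The FL libraries lay within a narrow span below every control and every ML library, and ML 9 and control 1 were the highest. Relative to control, FL had a log2 fold change of -0.40 (SE 0.36) and ML of 0.47 (SE 0.35), and FL against ML was -0.87 (SE 0.38, edgeR adjusted p = 0.244). Without ML 9 the ML against control value was -0.0152 and the FL against ML value -0.39. In FL against control 2 members, Dcn and Sparc, did not overlap and were lower, and none was higher (all genes 2.92% lower and 2.79% higher).

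Lum (lumican) was at 14.5, 3.95, 6.65 and 5.07 CPM in the controls, 5.15, 4.26 and 5.85 CPM in FL and 9.40, 7.30 and 8.34 CPM in ML. FL lay below ML without overlap, and control 1 was the highest library. On the log2 scale FL differed from control by -0.56 (SE 0.43) and ML by 0.16 (SE 0.42). Without control 1 these were -0.0377 and 0.68. Bgn (biglycan) was at 23.4 CPM in control 1 and at 72.2 to 79.0 CPM in controls 2 to 4. Its FL libraries gave 44.4 to 73.1 CPM and its ML libraries 28.8 to 49.9 CPM. In FL against ML 2 members did not overlap and were lower (Lum and Dcn) and 7 did not overlap and were higher (Tgfbr2, Tgfbr3, Smad3, Smad7, Ski, Ltbp4 and Fn1), beside 15.1% and 16.6% of all genes.

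Genes of matrix turnover gave no call either. Timp2, a metalloproteinase inhibitor, was at 6.15, 11.2, 10.2 and 11.9 CPM in the controls, 10.3, 8.74 and 7.34 CPM in FL and 11.5, 11.3 and 5.71 CPM in ML. The groups overlapped, with log2 fold changes against control of -0.17 (SE 0.35) for FL and -0.06 (SE 0.35) for ML. Lox, the collagen crosslinking enzyme, was at 0.057, 0.611, 0.181 and 0.404 CPM in the controls, 0.185, 0.0869 and 0.175 CPM in FL and 0.394, 0.130 and 0.124 CPM in ML. Log2 fold changes against control were -1.12 (SE 0.76) for FL and -0.52 (SE 0.74) for ML, the latter -1.33 without ML 8 and -0.22 without ML 10. Timp3 ranged from 0.717 CPM in ML 9 to 22.4 CPM in FL 5, and Mmp2 from 0.612 to 2.39 CPM.

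Members rich in G and C were lower in control 1 and in ML than the other members. The coding stretches that follow show the contrast between 2 collagens and 2 proteoglycans, chosen after their values were seen. Each is 120 bases from the middle of the coding sequence, read 5′ to 3′ on the coding strand (plus in all 4 genes) of GRCm38 with introns left out, and G and C are in capitals. Glycine codons, which begin with GG, recur regularly along a collagen helix.
Col4a2 (chr8:11431389-11433760): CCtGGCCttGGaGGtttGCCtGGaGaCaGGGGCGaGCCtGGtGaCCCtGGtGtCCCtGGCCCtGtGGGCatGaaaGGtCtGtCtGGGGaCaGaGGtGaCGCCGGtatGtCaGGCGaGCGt
Col5a1 (chr2:27995873-27997595): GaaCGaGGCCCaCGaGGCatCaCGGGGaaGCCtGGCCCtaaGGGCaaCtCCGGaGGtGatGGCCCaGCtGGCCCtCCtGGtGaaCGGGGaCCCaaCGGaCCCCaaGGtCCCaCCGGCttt
Dcn (chr10:97507711-97509978): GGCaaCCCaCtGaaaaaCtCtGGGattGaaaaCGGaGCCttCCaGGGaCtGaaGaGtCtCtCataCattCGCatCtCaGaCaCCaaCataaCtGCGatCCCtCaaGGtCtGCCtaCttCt
Lum (chr10:97568752-97568871): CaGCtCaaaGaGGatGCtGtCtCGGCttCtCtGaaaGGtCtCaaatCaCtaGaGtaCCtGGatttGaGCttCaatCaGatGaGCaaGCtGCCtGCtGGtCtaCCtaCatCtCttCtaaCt
The whole coding sequence is 61.5% G and C in Col4a2 and 61.3% in Col5a1, against 47.6% in Dcn and 44.5% in Lum. Exon length differs too, at 6450 bp in Col4a2 and 8406 bp in Col5a1 against 1758 bp in Dcn and 2448 bp in Lum. GC content and length therefore cannot be told apart in these 4 genes. The stretches leave out Bgn, the other proteoglycan gene, whose transcript is 52.5% G and C.

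Over all 38 members the median GC content of the transcript was 52.8%. The 19 members at or above it had a median log2 fold change of -0.92 in ML against control, and the 19 below it -0.11. Without control 1 and ML 9 these were -1.10 and -0.13, and with the length and GC trend removed they were -0.41 and 0.13. Spearman's rho between GC content and the ML against control value was -0.608 over the 38 members and -0.009 over all genes, and with exon length it was -0.334 and -0.50. With the length and GC trend removed, rho with GC content was -0.549 over the members and -0.024 over all genes. Without control 1 and ML 9, rho with GC content was -0.662 over the members and -0.21 over all genes. The median log2 fold change was then -0.27 over all genes with at least 55% GC and 0.24 over those under 45%. With all 10 libraries these 2 medians were -0.06 and -0.01. For control 1 against the other controls, rho with GC content was -0.635 over the members and -0.286 over all genes. The members share the same libraries, and these correlations are descriptions across genes. All collagen genes of the set but Col3a1 and Col5a2 (52.5% and 49.6% GC) are among the members of higher GC, so GC content and role overlap. In control 1 the 19 members of higher GC lay a median 0.86 log2 units below their means over the libraries, and the other 19 lay 0.08 above. Among all genes with a GC content of at least 55% the deviation of control 1 was -0.31, and among those under 45% it was 0.28. For ML 9 against the other ML libraries the signs differed, with a rho of -0.144 over the members and 0.232 over all genes.

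**Figure D4:**
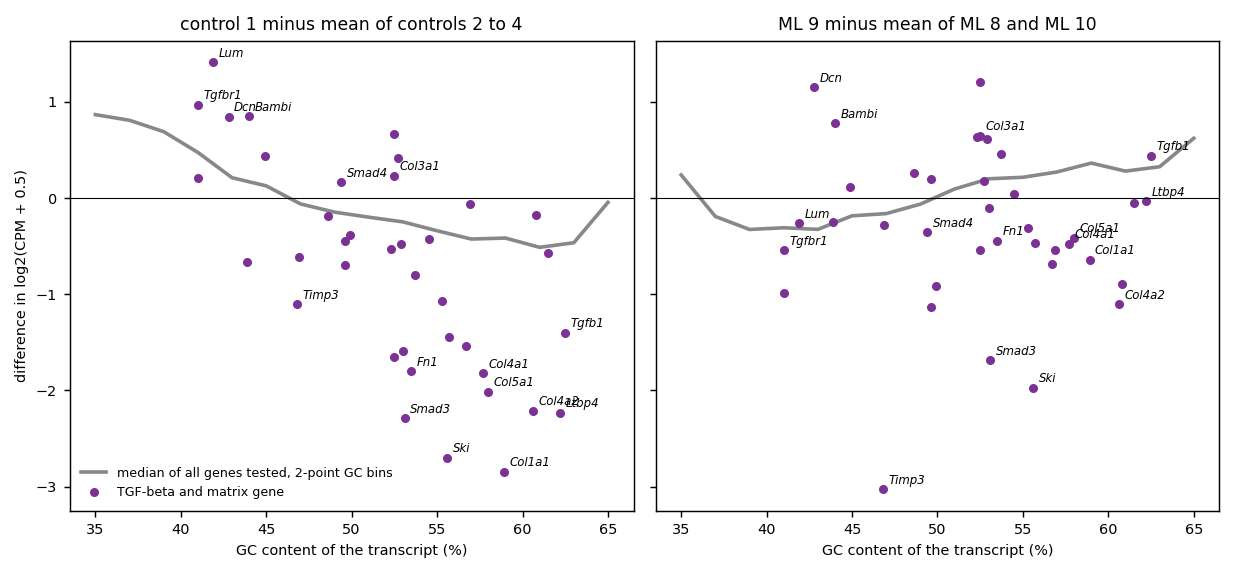
Difference in log2(CPM + 0.5) between 1 library and the others of its group, against the GC content of the transcript (%), for control 1 on the left and ML 9 on the right; purple points are the 38 TGF-beta and matrix genes and the grey line is the median of all genes tested in bins of GC content. In control 1 the GC-rich genes Col1a1, Ski, Ltbp4 and Col4a2 lie more than 2 log2 units below 0 and Lum, Tgfbr1, Dcn and Bambi above 0. Other points there depart from this slope: the GC-rich Smad6 and Smad7 lie at -0.17 and -0.06, and Smad3, at 53.1% GC, at -2.29. In ML 9 the points spread with little slope (Spearman's rho over the 38 genes -0.635 in control 1 and -0.144 in ML 9) while all genes gave a rho of 0.232.

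The rest of the pathway was read in 2 further lists. Of 40 other TGF-beta family genes (activators, other ligands and receptors, and targets), 39 were tested and none passed in any comparison with edgeR. In ML against control 29 of 39 lay below 0 (median -0.25), in FL against control 19 of 39 did (median 0.04), and in FL against ML 13 of 39 did (median 0.22). Ccn2, a matricellular target gene of TGF-beta, was at 22.5, 9.71, 6.13 and 20.1 CPM in the controls, 3.04, 3.85 and 5.07 CPM in FL and 9.09, 9.45 and 9.37 CPM in ML. FL lay below both other groups without overlap, and the ML libraries sat within the control range. The log2 fold change was -1.87 (SE 0.45, edgeR adjusted p = 0.580) in FL against control and -1.22 (SE 0.46, edgeR adjusted p = 0.238) in FL against ML. DESeq2 called the FL against control difference (adjusted p = 0.0160, from 0.0160 to 1.00 over 14 alternatives). Inhbe, a hepatocyte activin subunit gene, was at 84.4, 63.8 and 49.7 CPM in FL and 18.3 to 46.8 CPM in control, a log2 fold change of 1.17 (SE 0.35, edgeR adjusted p = 0.915). Between ML and control, low p-values belonged to the activin antagonist gene Fst, at -1.51 (SE 0.54). Smad1, a BMP-activated SMAD, also had one, at -1.26 (SE 0.46). Control 1 held the highest Fst value, and without it Fst was at -0.97. Control 2 held the highest Smad1 value, and without it Smad1 was at -0.75. Fst was also lower in FL than in control, at -1.56 (SE 0.54), and was at -0.05 in FL against ML. In FL against ML low p-values belonged, beside Ccn2, to Bmp2, at -0.78 (SE 0.36), and to the BMP target Hamp, hepcidin, at -1.41 (SE 0.66). ML 9 held the highest Bmp2 and Hamp values, and without it and control 1 these were -0.39 and -0.35.

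Of 52 other matrix genes 49 were tested, and none passed. Of these, 42 of 49 lay below 0 in ML against control (median -0.50), in FL against control 36 of 49 did (median -0.16), and in FL against ML 16 of 49 did (median 0.39). Col5a3, another type V collagen gene, was at 12.5, 76.0, 21.8 and 139 CPM in the controls, 19.7, 51.4 and 8.07 CPM in FL and 12.5, 9.00 and 8.59 CPM in ML. The controls spread over more than the distance between the groups, and the log2 fold change in ML was -2.63 (SE 0.83, edgeR adjusted p = 0.301). Adamts1, a matrix protease gene, was at 4.50 to 4.96 CPM in ML and 7.58 to 26.4 CPM in control, a log2 fold change of -1.54 (SE 0.50), and at -0.91 (SE 0.49) in FL. The highest control value was that of control 2, without which these were -1.02 and -0.38, and without FL 5 the FL value was -1.37. Lamc1, a laminin chain gene of basement membranes, gave -1.35 (SE 0.51) in ML against control and 1.45 (SE 0.54) in FL against ML. Postn, periostin, was at 4.41 to 6.02 CPM in FL and 6.70 to 11.8 CPM in control, a log2 fold change of -0.81 (SE 0.30), and Fbln5 gave -0.73 (SE 0.41). Tnc and the collagen hydroxylase gene P4ha2 gave 1.28 (SE 0.53) and 0.89 (SE 0.42) in FL against ML.

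Markers of the cells that make matrix were summed in each library. The labelled tissue was checked against 8 hepatocyte markers, whose summed level was 56960 CPM or more in every library. The 13 hepatic stellate cell markers summed to 151 to 183 CPM in control, 131 to 158 CPM in FL and 137 to 225 CPM in ML, and none of them passed the test. Their log2 fold changes had medians of -0.04 in FL and -0.17 in ML against control, with 7 and 9 of 13 below 0. The highest stellate cell sum was that of ML 9, and its markers went both ways. Des and Colec11 had their highest values there, at 30.2 and 70.2 CPM, and Pdgfra and Pdgfrb their lowest, at 1.04 and 2.15 CPM. The 5 myofibroblast and smooth muscle markers summed to 20.3 to 34.1 CPM in control, 17.7 to 26.9 CPM in FL and 9.96 to 33.2 CPM in ML, and the 6 portal fibroblast markers to 6.72 to 11.1, 4.63 to 7.44 and 6.48 to 12.2 CPM. The 13 endothelial markers summed to 244 to 377 CPM in control, 266 to 297 CPM in FL and 193 to 364 CPM in ML. The 5 mesothelial markers were at 1.11 to 6.44, 1.04 to 1.81 and 2.70 to 5.99 CPM, so that FL lay below ML, as Lum and Dcn did; only 3 of these markers were tested and none passed. Cholangiocyte markers summed to 21.6 to 68.7 CPM over all libraries, lymphocyte markers to 1.11 to 10.9 CPM (highest in ML 9) and adipocyte markers to 2.96 to 21.1 CPM. Within these sums some markers, chosen after their values were seen, stood out in a few libraries. The cholangiocyte keratin genes Krt19 and Krt7 were at 11.6 and 3.05 CPM in ML 8 and at most 3.72 and 1.96 CPM elsewhere. Of the other cholangiocyte markers, Epcam and Cftr were also highest in ML 8. Sox9 and Spp1 were highest in FL 5, at 8.78 and 53.6 CPM, beside 1.94 and 46.9 CPM in ML 8. The cholangiocyte sum was 67.3 CPM in ML 8 and 68.7 CPM in FL 5. Acta2, Cnn1 and Actg2 were highest in ML 8 too, at 6.83, 1.21 and 0.972 CPM. The other smooth muscle markers, Tagln and Myh11, were not. Of the mesothelial markers only Upk3b was highest in ML 8, at 1.76 CPM. Adipoq was at 2.43 CPM in control 3, 1.71 CPM in ML 8, 1.96 CPM in ML 9 and at most 0.031 CPM elsewhere, and the highest adipocyte sum, in FL 5, was all Cidec. Without ML 8 the members' median in ML against control was -0.96. Kupffer cell markers summed to 908 CPM in ML 9 and to 202 to 396 CPM elsewhere. Most of the ML 9 sum was Clec4f and Cd5l, at 501 and 284 CPM. Vsig4, Timd4 and Adgre1 were also highest in ML 9, at 43.5, 8.28 and 35.3 CPM. Marco and Csf1r were not, at 4.37 and 31.5 CPM, beside 14.3 CPM in control 2 and 38.5 CPM in FL 5. No marker was at 0 in all libraries, and the part of cell makeup in the members' values was not tested.

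**Figure D5:**
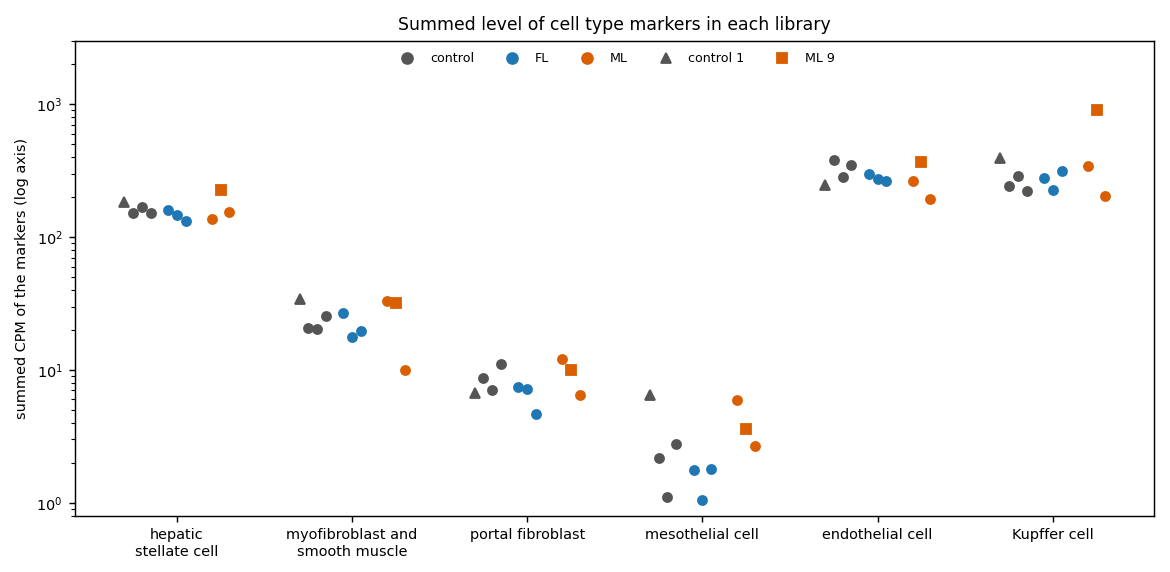
Summed CPM of the markers of 6 cell types (log axis) in each library, with controls in grey (control 1 as a triangle), FL in blue and ML in orange (ML 9 as a square). Stellate cell sums overlap between the 3 groups (131 to 225 CPM), and the Kupffer cell sum of ML 9 lies above all others.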

How the data were processed

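Polyadenylated liver RNA was sequenced as directional paired-end libraries. The authors deposited raw counts per Ensembl gene. STAR, featureCounts and GRCm38 are named in the submitters' processing notes; tool versions, the annotation and the strand setting were not stated there. Groups came from the labels. Counts were tested with edgeR 4.0.16 in R 4.3.3 (TMM scaling, filterByExpr with a minimum count of 10, quasi-likelihood fit over 10 libraries, two-sided, Benjamini-Hochberg over 14820 genes), and CPM are TMM-scaled. SE is the log2 fold change over the root of F. Exon length and GC content are those of the longest coding transcript in GENCODE M21. Alternatives used DESeq2 1.42.0, limma 3.58.1 (voom with quality weights) and the settings named in the closing section. In another, edgeR was fitted after removal of a spline trend (4 degrees of freedom) on length and GC content per library. The fit was tested on simulated counts. Values are given in every library for the members with 1 of the 6 lowest p-values in a comparison and the most abundant per kilobase in each role; of other pathway genes those with the 3 lowest p-values per comparison are named, except 1 gene that is not reported here. Members and lists were chosen with earlier results of these data known. Libraries of a group differed by more than counting error (chi-square per degree of freedom 85.5 or more).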

Additional observations from a re-analysis of the deposited data

Results flagged for a closer look

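Among the 19 genes with values in every library, the 4 controls were examined for a single distant library, and 2 genes had one. Tgfb1 was at 2.28 CPM in control 1, far under the other controls, and Dcn was at 179 CPM in control 1, far above them. In both, the gap to the nearest control was most of the whole control range. With 19 groups examined, chance flags about 1 in 20 groups.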

How the results depend on the processing

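No paired analysis was possible because no replicate number is shared between groups. Of the 19 named genes, 13 kept their sign in all alternatives in FL against control, 12 in ML against control and 13 in FL against ML. The number of genes passing in FL against control, ML against control and FL against ML was 52, 46 and 248 with DESeq2 (1 member, in the last) and 1, 3 and 2 without a count filter. It was 4 in FL against control and 4 in FL against ML with limma-voom quality weights, and in FL against ML 2 with the exon length and GC trend removed and 0 with only those groups fitted. That trend also took the members' median in FL against ML to 0.0365 and reversed Ltbp4 (-0.0233) and Col6a3 (-0.0714) in FL, Timp2 in ML (0.24), and Tgfbr1 (-0.0262) and Smad4 (-0.0874) in FL against ML. The limma-voom fit with quality weights reversed Ltbp4 (-0.33), Col6a3 (-0.12) and Fn1 (-0.10) in FL, Sparc in ML (-0.32), and Smad4 (-0.0121), Col3a1 (0.39), Sparc (0.0836) and Timp2 (0.19) in FL against ML. Without control 1 and ML 9, Ltbp4 (-0.29) and Fn1 (-0.19) reversed in FL, Sparc in ML (-0.13) and Timp2 in FL against ML (0.0355). The cause was not tested. Leaving out 1 library at a time gave 0 to 2 genes passing in FL against control, 0 to 1 in ML against control and 0 to 1 in FL against ML. The members' median then ran from -0.96 (without ML 8) to -0.31 (without ML 9) in ML against control and from 0.21 (without FL 5) to 0.81 (without ML 8) in FL against ML. In FL against control the ranges that crossed 0 were -0.49 to 0.0651 for Col6a1, -0.11 to 0.59 for Col6a3, -0.23 to 0.30 for Fn1, -0.29 to 0.29 for Ltbp4, -0.0095 to 0.42 for Smad4 and -0.0174 to 0.72 for Tgfbr1. In ML against control they were -0.0152 to 0.73 for Dcn, -0.0532 to 0.68 for Lum, -0.11 to 0.16 for Smad4, -0.31 to 0.48 for Sparc, -0.33 to 0.0425 for Tgfb1, -0.22 to 0.30 for Tgfbr1 and -0.22 to 0.20 for Timp2. In FL against ML they were -0.64 to 0.14 for Col3a1, -0.89 to 0.22 for Lox, -0.0353 to 0.40 for Smad4, -0.0232 to 0.72 for Tgfbr1 and -0.36 to 0.0567 for Timp2. Col4a1, Col4a2, Col5a1, Col6a1, Col6a3 and Fn1, named for their low p in ML against control, stayed below 0 there in all 14 alternatives. So did Smad3, Ski, Ltbp4, Tgfbr2 and Col3a1, and also Lox in the 12 alternatives that tested it. The alternatives reuse the same libraries. The common biological coefficient of variation was 0.448. Lox and Timp1, at most 0.611 and 0.333 CPM, are limited by depth.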
